A study of Homo sapiens with 6 samples.

Results

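The proteasome genes described here are the 45 genes, of 22925 in the table of the series, whose symbol is PSM followed by a letter from A to G and a number, with antisense and pseudogene names left out. They encode the subunits of the 20S core, the subunits of the 19S cap, the immunoproteasome subunits, the activators and inhibitor that bind the core, and factors that assist assembly. The rule itself uses names alone. Poly(A) RNA was sequenced from HT-1080, an established human fibrosarcoma line. The treated group was HT-1080 cells given 20 μM PhenDC3, a ligand that binds and stabilizes G quadruplexes in guanine-rich nucleic acid, in 1% DMSO for 48 h, with 3 libraries. The control group was the same line given 1% DMSO alone for 48 h, with 3 libraries, so both groups carried the solvent. The comparison asks how the level of each transcript, relative to the others, differed with the ligand present.

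The proteasome is the main protease of the cytosol and nucleus. Its core is a barrel of stacked rings, in which alpha subunits form the gated outer rings and beta subunits form the inner rings that hold the active sites. The 19S cap docks on the outer ring, recognizes and removes ubiquitin chains, and unfolds substrates with a ring of ATPases that feeds them into the barrel. Interferon swaps in alternative catalytic subunits, which change the peptides made for presentation on class I molecules, and transcription factors of the NFE2L family raise subunit genes together when proteasome activity is short.

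Values are reads per gene after division by a size factor that the authors set for each library, called normalized counts, and are given as mean ± SD over 3 libraries. The recovered reads came to between 7371056 and 9386691 per PhenDC3 library and between 12574952 and 14292987 per DMSO library. Each proteasome gene had between 24 and 14199 reads in each library, and all 45 passed the minimum mean normalized count of 5 for testing. Transcripts of the mitochondrial genome took 15.4% to 15.5% of reads in PhenDC3 and 3.72% to 3.96% in DMSO. The values are relative levels, scaled by a size factor and not to a common library total. A change in total RNA per cell would not be seen in them, and fewer cells of a type cannot be told apart from less RNA per cell. Of the mesenchymal markers of this line, VIM was at 13620.3 in PhenDC3 against 25153 in DMSO normalized counts, and CD44 at 8566 in PhenDC3 against 11375 in DMSO. VIM, FN1, CDH2 and CD44 were lower, COL1A1 was higher, S100A4 had no call, and THY1 fell below the minimum for testing. The summed mesenchymal list ranged from 28336 to 28587 in PhenDC3 and from 45092 to 48375 in DMSO. The summed epithelial list, of which KRT8, KRT18 and CLDN4 were measured, ranged from 2428 to 2676 in PhenDC3 and from 2278 to 2801 in DMSO. KRT8 was higher (log2 fold change 0.20, limma adjusted p = 0.0339), a call lost with DESeq2 (adjusted p = 0.0715). The KRT8 call was also lost without PhenDC3 replicate 1 (limma adjusted p = 0.132) or 3 (0.117) or DMSO replicate 1 (0.208) or 2 (0.0850). KRT18 and CLDN4 had no call, although KRT18 would be called lower without DMSO replicate 1 (limma adjusted p = 0.0255). CD68 was the immune or endothelial marker measured, with 7.87 to 19.4 in PhenDC3 and 4.64 to 7.78 in DMSO. It was higher (log2 fold change 1.16, limma adjusted p = 0.0132), a call lost without PhenDC3 replicate 1 (limma adjusted p = 0.0718) or 2 (0.0690). The part of these differences in the results below was not tested.

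Promoters of 39 of the 45 genes were in the RefSeq table of GRCh38.p14, each running from 250 bases before the annotated start to 50 after it. PSMA7, PSMB1, PSMB6, PSMB7, PSMD4 and PSMG3 were not matched. They were searched on both strands for TGACNNNGC, the core of the antioxidant response element that NFE2L factors bind with small MAF partners. The core was found in 12 of 39 proteasome promoters (30.8%), against 13.6% of all 27305 promoters and 15.3% of the 10298 promoters of tested genes. Those 12 belonged to PSMB9, PSMC4, PSMD1, PSMD3, PSMD5, PSMD9, PSMD12, PSME1, PSME2, PSME4, PSMG1 and PSMG2. A G quadruplex motif, taken as 4 stretches of at least 3 G on either strand with 1 to 7 bases between them, was found in 10 of 39 (25.6%), against 24.1% of all promoters and 34.1% of those of tested genes. The looser TGANNNNGC, which every TGACNNNGC match also fulfils, was found in 23 of 39 (59.0%), against 42.1% of all promoters and 42.8% of those of tested genes. These matches describe letters and show no binding.

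Of the sequences below, the first 3 are printed 5′ to 3′ on the gene's strand with each TGACNNNGC match in capitals, whichever strand it lies on, and the last has its G quadruplex motifs in capitals. PSME4 and PSMB9 are shown because they had the highest and the lowest fold change of the group, PSMD3 as an example of a lower gene with 2 matches, and PSMG4 as an example of a higher gene with 2 G quadruplex motifs. PSMD9, with no call, also held 2 matches. PSME2, which was lower, and PSME1 and PSMD11, with no call, also held 2 G quadruplex motifs. PSME4 is at chr2:53970944-53971243 on the minus strand, and PSMB9 at chr6:32853942-32854241, PSMD3 at chr17:39980557-39980856 and PSMG4 at chr6:3258697-3258996 are on the plus strand.
PSME4: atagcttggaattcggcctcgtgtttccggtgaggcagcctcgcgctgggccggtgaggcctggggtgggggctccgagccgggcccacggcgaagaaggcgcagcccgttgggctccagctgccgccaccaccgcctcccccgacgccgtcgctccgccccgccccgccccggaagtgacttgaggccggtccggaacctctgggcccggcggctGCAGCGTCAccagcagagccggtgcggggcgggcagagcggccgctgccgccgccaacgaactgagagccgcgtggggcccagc
PSMB9: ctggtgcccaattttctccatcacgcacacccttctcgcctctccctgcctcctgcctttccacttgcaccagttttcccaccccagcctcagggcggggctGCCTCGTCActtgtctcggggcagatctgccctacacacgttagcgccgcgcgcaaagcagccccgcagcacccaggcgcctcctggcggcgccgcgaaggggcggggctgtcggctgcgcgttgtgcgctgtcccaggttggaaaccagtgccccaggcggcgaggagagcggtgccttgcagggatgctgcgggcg
PSMD3: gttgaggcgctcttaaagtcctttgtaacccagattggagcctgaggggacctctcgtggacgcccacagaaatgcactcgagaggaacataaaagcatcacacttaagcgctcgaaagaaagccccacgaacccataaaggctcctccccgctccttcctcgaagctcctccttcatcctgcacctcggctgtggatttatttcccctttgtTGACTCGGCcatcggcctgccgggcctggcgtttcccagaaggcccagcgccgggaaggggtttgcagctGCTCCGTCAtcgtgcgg
PSMG4: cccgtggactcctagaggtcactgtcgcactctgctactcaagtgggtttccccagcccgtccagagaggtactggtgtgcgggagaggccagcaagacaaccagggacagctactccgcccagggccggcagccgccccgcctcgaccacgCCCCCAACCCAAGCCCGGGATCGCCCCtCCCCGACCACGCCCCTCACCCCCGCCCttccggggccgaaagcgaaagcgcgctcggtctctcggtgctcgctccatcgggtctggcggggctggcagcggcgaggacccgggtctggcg
The match in PSME4 lay on the opposite strand, 34 bases before the start. That in PSMB9 lay on the opposite strand, 148 bases before it. PSMD3 had a match on its own strand 37 bases before the start and another on the opposite strand 34 bases after it. Both motifs of PSMG4 lay on the opposite strand, so their G runs read as C runs here, and each was 27 bases long. The core was present in 1 of 3 promoters of genes that were higher, 7 of 21 of genes that were lower and 4 of 15 of genes with no call.

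Most proteasome genes were lower in PhenDC3 than in DMSO, each by less than 2-fold. Of the 45 genes, 24 were lower and 4 were higher (limma, adjusted p under 0.05 over all 16482 tested genes), and 17 had no call. Genes of both the core and the cap were among the lower ones, with 10 of 13 genes of the 20S core and 10 of 17 of the 19S cap. The higher genes were PSME4 and PSME3, which encode core activators, PSMD4, a ubiquitin receptor of the cap, and PSMG4, an assembly chaperone. Over all tested genes 59.6% were called, 29.2% higher and 30.4% lower. The proteasome genes called in either direction, 62.2%, were near that share, while 53.3% were lower and 8.89% higher, which was not tested as a set. With edgeR on the recovered reads 24 were lower and 3 higher, where 30.5% and 29.1% of all genes were. With DESeq2 on those reads 23 were lower and 3 higher, where 19.3% and 19.7% of 21593 genes were, or 39.0% in either direction, and the authors' deposited table gave the same counts.

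The median log2 fold change of the 45 genes was -0.21, against -0.02 over all tested genes, and the range was -0.93 to 0.86. Fold changes are of the normalized count plus 1 on the log2 scale. The median size of the change, regardless of sign, was 0.24, against 0.42 over all tested genes. None of the 45 genes passed 2-fold, against 16.6% of all tested genes. The tested genes include those with a mean as low as 5 and were not matched to the proteasome genes in level. The 3 libraries of each group did not overlap for 35 genes, against 64.1% of all tested genes, with PhenDC3 lower for 29 and higher for 6, where 32.6% and 31.5% of all tested genes were so placed. The groups overlapped for the other 10 genes. The counts for each class below stand beside these shares and beside 29.2% called higher and 30.4% called lower over all tested genes.

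**Figure D1:**
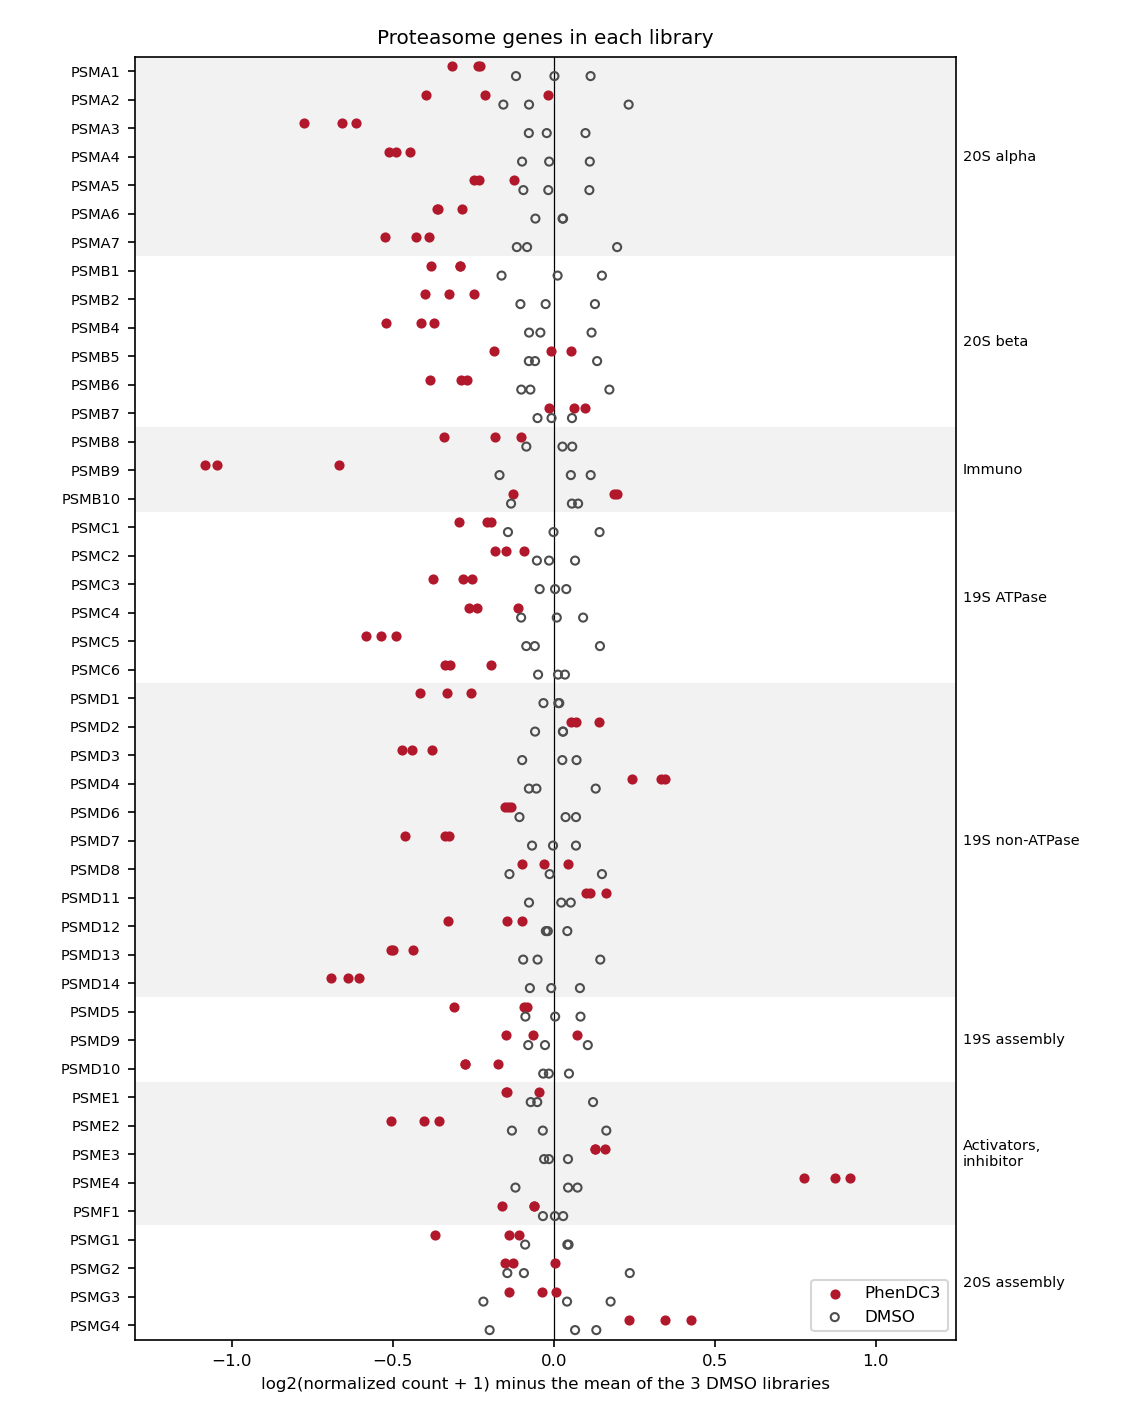
Each row is a proteasome gene and each point a library, 3 of PhenDC3 (filled, upper) and 3 of DMSO (open, lower), placed by log2(normalized count + 1) minus the mean of the 3 DMSO libraries. The points of most 20S and 19S genes lie left of zero in PhenDC3, PSMB9 lies farthest left and PSME4 farthest right.

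**Figure D2:**
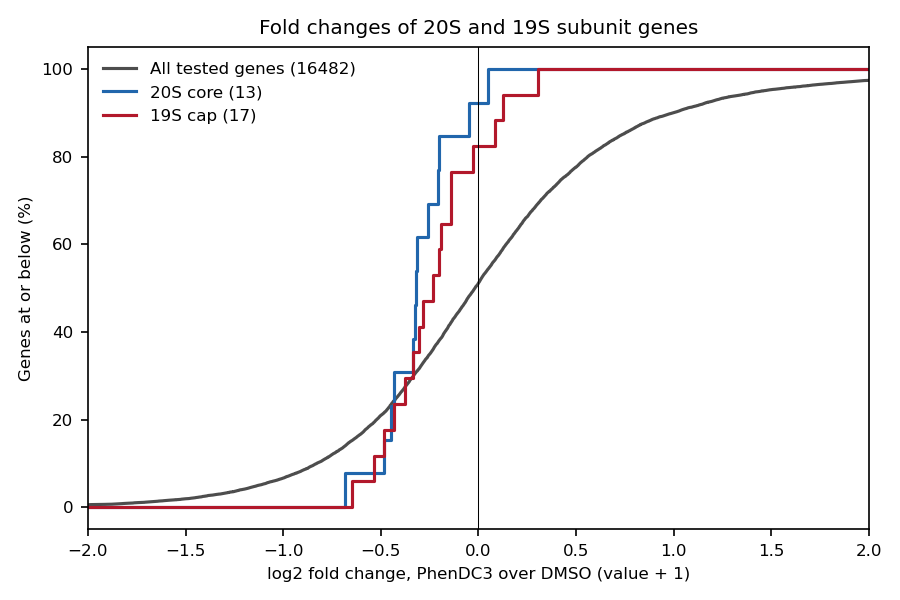
The lines give the percent of genes (vertical axis) at or below each log2 fold change of PhenDC3 over DMSO (horizontal axis), for all 16482 tested genes, the 13 genes of the 20S core and the 17 of the 19S cap. Medians were -0.32 for the core, -0.23 for the cap and -0.02 for all tested genes.

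The DMSO libraries differed from one another in these genes. Over all genes, too, DMSO replicate 3 differed most from the other DMSO libraries, by the chi-square values given with the processing below. DMSO replicate 3 was the highest of the DMSO libraries for 34 of 45 genes, and its log2 level stood a median of 0.14 above the mean of the other DMSO libraries, against 0.01 over all tested genes. Without it 22 genes were lower and 5 higher, with a median of -0.18, and 26 of the 28 called genes kept their call. The count of higher genes was 2 without PhenDC3 replicate 3 and 2 without DMSO replicate 1.

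In the outer alpha rings nearly every gene was lower. All 7 alpha genes had a negative fold change, with a median of -0.34, and 6 were lower, with PSMA2 the exception. Summed over the 7, the normalized count was 6661 ± 88.6 in PhenDC3 and 8966 ± 778 in DMSO, or 74.3%. PSMA3 had 781, 849 and 874 in the PhenDC3 libraries, against 1268, 1318 and 1432 in the DMSO libraries. Every PhenDC3 library was below every DMSO library, at 62.3% of the DMSO mean (log2 fold change -0.68, SE 0.07, limma adjusted p = 7.95e-08). PSMA4 had 1379, 1401 and 1443 in the PhenDC3 libraries, against 1837, 1948 and 2126 in the DMSO libraries, again without overlap (log2 fold change -0.48, SE 0.07, limma adjusted p = 3.21e-06). PSMA7 had 2434, 2214 and 2364 in the PhenDC3 libraries, against 3006, 2939.9 and 3649 in the DMSO libraries. Its groups did not overlap, and DMSO replicate 3 stood above the other DMSO libraries (log2 fold change -0.45, SE 0.07, limma adjusted p = 3.36e-05).

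PSMA6 averaged 214 ± 6.62 in PhenDC3 and 270.4 ± 9.16 in DMSO (log2 fold change -0.34, SE 0.09, limma adjusted p = 0.00389). PSMA1 averaged 793 ± 26.0 in PhenDC3 and 952 ± 76.3 in DMSO and was also lower (log2 fold change -0.26, SE 0.07, limma adjusted p = 0.00497). PSMA5 averaged 956 ± 45.3 in PhenDC3 and 1100.2 ± 79.6 in DMSO, and its call was the weakest of the ring (log2 fold change -0.20, SE 0.07, limma adjusted p = 0.0211). The PSMA5 call was lost without PhenDC3 replicate 1 (limma adjusted p = 0.0721), PhenDC3 replicate 3 (0.0876) or DMSO replicate 3 (0.0531). PSMA2 had 134, 103 and 117 in the PhenDC3 libraries, against 121, 128 and 159 in the DMSO libraries, and its groups overlapped (log2 fold change -0.21, SE 0.13, limma adjusted p = 0.189). PSMA8, the testis form of an alpha subunit, is not analysed here.

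In the inner beta rings the structural subunit genes PSMB1, PSMB2 and PSMB4 were lower, as was the catalytic PSMB6, while the catalytic PSMB5 and PSMB7 had no call. That made 4 lower genes of 6, with a median log2 fold change of -0.32. The summed normalized count was 9847 ± 353 in PhenDC3 and 11539 ± 885 in DMSO, or 85.3%. PSMB4, a structural subunit, had 2047, 1843 and 1989 in the PhenDC3 libraries, against 2509.9, 2572 and 2871 in the DMSO libraries. Its groups were well apart (log2 fold change -0.43, SE 0.07, limma adjusted p = 1.3e-05). PSMB1 averaged 1872 ± 67.5 in PhenDC3 and 2346 ± 252 in DMSO (log2 fold change -0.32, SE 0.07, limma adjusted p = 0.000765). PSMB2 averaged 1429 ± 76.4 in PhenDC3 and 1791 ± 148 in DMSO (log2 fold change -0.32, SE 0.07, limma adjusted p = 0.000542). PSMB1 and PSMB2 encode structural subunits as well, and both stood at 79.8% of DMSO. PSMB3 is not analysed here.

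The catalytic subunits are PSMB5, with the chymotrypsin-like site, PSMB6, with the caspase-like site, and PSMB7, with the trypsin-like site. PSMB6 had 775, 716 and 765 in the PhenDC3 libraries, against 889, 871 and 1054 in the DMSO libraries, and was lower (log2 fold change -0.31, SE 0.08, limma adjusted p = 0.00191). PSMB5 had 1714, 1453 and 1641 in the PhenDC3 libraries, against 1586, 1565 and 1813 in the DMSO libraries. Its groups overlapped (log2 fold change -0.05, SE 0.07, limma adjusted p = 0.617). PSMB7 had 2308, 2133 and 2251 in the PhenDC3 libraries, against 2083, 2147 and 2243 in the DMSO libraries, and also overlapped (log2 fold change 0.05, SE 0.06, limma adjusted p = 0.523). Whether PSMB6 differed from PSMB5 or PSMB7 in its change was not tested. Per kb of the principal transcript, the level of PSMB7 was 2276 ± 90.9 in PhenDC3 and 2201 ± 82.5 in DMSO, that of PSMB5 1239 ± 104 in PhenDC3 and 1279 ± 106 in DMSO and that of PSMB6 883 ± 37.1 in PhenDC3 and 1101 ± 118 in DMSO normalized counts. PSMB7 was first and PSMB6 last in both groups, although in DMSO the gap between PSMB5 and PSMB6 was smaller than the sum of their SDs.

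The immunoproteasome genes were present at low levels in this line. PSMB9 fell the most of all 45 genes, while PSMB8 and PSMB10 had no call. PSMB9 replaces PSMB6, PSMB8 replaces PSMB5 and PSMB10 replaces PSMB7 in particles made after interferon. PSMB9 had 45.0, 46.1 and 60.4 in the PhenDC3 libraries, against 85.6, 104 and 99.99 in the DMSO libraries. These rest on 31 to 46 reads per PhenDC3 library and 110 to 145 per DMSO library, and the groups did not overlap (log2 fold change -0.93, SE 0.16, limma adjusted p = 3.91e-05). Its fold change lay above those of 7.79% of tested genes. PSMB8 had 209, 198 and 177 in the PhenDC3 libraries, against 212, 229 and 234 in the DMSO libraries. The groups did not overlap but the difference did not pass the test (log2 fold change -0.21, SE 0.10, limma adjusted p = 0.0866). PSMB10 had 45.0, 35.7 and 44.6 in the PhenDC3 libraries, against 41.2, 35.6 and 40.7 in the DMSO libraries, with overlap (log2 fold change 0.09, SE 0.18, limma adjusted p = 0.71). Per kb of transcript, the level was 173 ± 14.6 in PhenDC3 and 199.98 ± 10.3 in DMSO for PSMB8, 64.6 ± 10.9 in PhenDC3 and 124 ± 12.6 in DMSO for PSMB9 and 34.3 ± 4.30 in PhenDC3 and 32.2 ± 2.57 in DMSO for PSMB10. PSMB11, the thymus subunit, is not analysed here.

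Set against the subunit it replaces, PSMB9 was again lower in PhenDC3. The ratio of PSMB9 to PSMB6 normalized counts, not corrected for length, was 5.80%, 6.44% and 7.89% in the PhenDC3 libraries, against 9.63%, 11.98% and 9.49% in the DMSO libraries. No PhenDC3 library reached the lowest DMSO library, and the log2 difference was -0.63 (SE 0.17, exact two-sided permutation p = 0.1, the smallest that 20 regroupings of 3 against 3 allow). The ratio of PSMB8 to PSMB5 averaged 12.2% ± 1.42 in PhenDC3 and 13.6% ± 0.897 in DMSO and overlapped (log2 difference -0.16, SE 0.11, exact permutation p = 0.3, n = 3 each). The ratio of PSMB10 to PSMB7 averaged 1.87% ± 0.168 in PhenDC3 and 1.82% ± 0.162 in DMSO (log2 difference 0.04, SE 0.11, exact permutation p = 0.7, n = 3 each). The 3 ratios were chosen together, and at 3 against 3 none could pass 0.05.

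**Figure D3:**
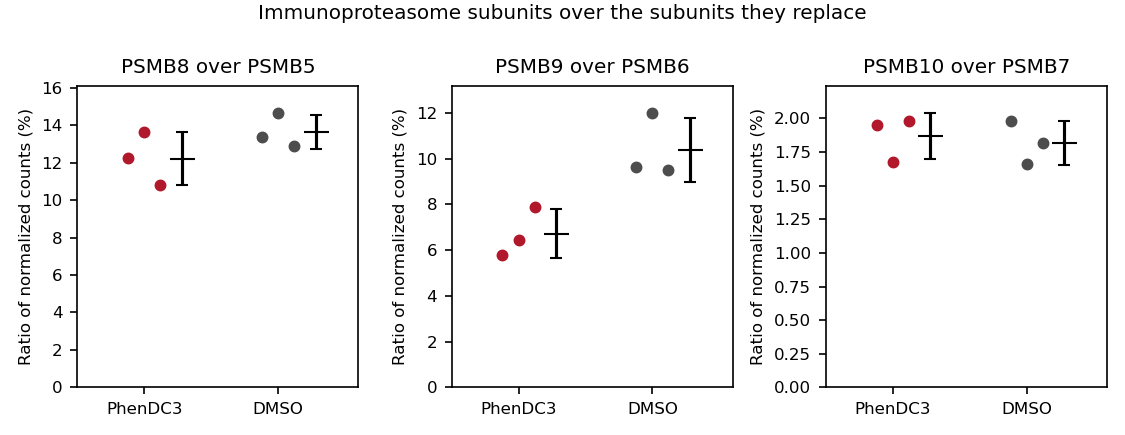
Each panel plots the ratio of normalized counts (percent, from 0) of an immunoproteasome gene to the gene whose subunit it replaces, in 3 PhenDC3 and 3 DMSO libraries, with mean and SD beside the points. PSMB9 over PSMB6 averaged 6.71% in PhenDC3 and 10.4% in DMSO, and the other ratios overlap.

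In the ATPase ring of the 19S cap, all 6 genes had PhenDC3 libraries below every DMSO library, and 4 passed the test. Over all tested genes 32.6% were so placed and 30.4% were called lower. The median log2 fold change was -0.26. The summed normalized count was 6294 ± 137 in PhenDC3 and 7773 ± 419 in DMSO, or 81.0%. PSMC5 had 1404, 1361 and 1451 in the PhenDC3 libraries, against 1920.0, 1956 and 2250.1 in the DMSO libraries. This was the largest fall of the ring (log2 fold change -0.54, SE 0.07, limma adjusted p = 1.37e-06). PSMC3 averaged 1513 ± 66.6 in PhenDC3 and 1865 ± 53.6 in DMSO (log2 fold change -0.30, SE 0.06, limma adjusted p = 0.000359). PSMC6 averaged 497 ± 27.3 in PhenDC3 and 605 ± 18.1 in DMSO (log2 fold change -0.28, SE 0.08, limma adjusted p = 0.00316). The ATPases of the ring are 6 different proteins, each from a gene of its own. PSMC4 averaged 1555 ± 89.0 in PhenDC3 and 1792 ± 119 in DMSO (log2 fold change -0.20, SE 0.07, limma adjusted p = 0.015), a call lost without PhenDC3 replicate 2 (limma adjusted p = 0.0678) or PhenDC3 replicate 3 (0.0748). PSMC2 averaged 1211 ± 37.5 in PhenDC3 and 1336 ± 56.5 in DMSO and had no call (log2 fold change -0.14, SE 0.07, limma adjusted p = 0.0693).

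PSMC1 had more signal in copies of itself than in its own row. It had 108, 115 and 115 in the PhenDC3 libraries, against 132, 119.9 and 146 in the DMSO libraries, with no call (log2 fold change -0.23, SE 0.12, limma adjusted p = 0.105). Its processed copy PSMC1P1 had 462, 506 and 483 in the PhenDC3 libraries, against 619.5, 641 and 692 in the DMSO libraries, and was lower (log2 fold change -0.43, SE 0.08, limma adjusted p = 7.98e-05). The 4 PSMC1 copies in the table together held 5.16 times the normalized count of PSMC1 in DMSO. PSMC1 and its copies summed to 616 ± 26.9 in PhenDC3 and 818 ± 49.3 in DMSO, or 75.2%. PSMC1 also shares 75.8% of its annotated exonic bases with NRDE2 on the opposite strand, which was higher, at 372 in PhenDC3 against 277 in DMSO. The sources used here do not give the strand setting of the counting, so the level of PSMC1 is uncertain.

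The non-ATPase subunits of the cap were mixed. Of 11 genes 6 were lower, PSMD4 was higher and 4 had no call, with a median log2 fold change of -0.19. PSMD14, the deubiquitinase that cuts ubiquitin chains off substrates, had 1412, 1502 and 1466 in the PhenDC3 libraries, against 2270.2, 2168 and 2415 in the DMSO libraries. The groups were far apart, at 63.9% of DMSO (log2 fold change -0.64, SE 0.06, limma adjusted p = 3.44e-08). PSMD7, the inactive partner of PSMD14 in the lid, averaged 1187 ± 61.6 in PhenDC3 and 1539.8 ± 72.9 in DMSO (log2 fold change -0.38, SE 0.07, limma adjusted p = 7.13e-05). Of the other lid subunits, PSMD13 had 1541, 1609 and 1535 in the PhenDC3 libraries, against 2041, 2106 and 2410.1 in the DMSO libraries and was lower (log2 fold change -0.48, SE 0.07, limma adjusted p = 4.87e-06). PSMD3, whose promoter is printed above, had 2043, 1913 and 1954 in the PhenDC3 libraries, against 2479, 2703 and 2787 in the DMSO libraries, without overlap (log2 fold change -0.43, SE 0.06, limma adjusted p = 7.7e-06). PSMD1, a scaffold of the base, averaged 2369 ± 128 in PhenDC3 and 2984 ± 56.7 in DMSO and was lower (log2 fold change -0.33, SE 0.06, limma adjusted p = 9.23e-05). PSMD12 averaged 1323 ± 109 in PhenDC3 and 1508 ± 38.8 in DMSO (log2 fold change -0.19, SE 0.07, limma adjusted p = 0.0233), and its call was lost without PhenDC3 replicate 1 (limma adjusted p = 0.146) or DMSO replicate 2 (0.0916).

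PSMD4, which binds ubiquitin chains, was the cap gene that rose. It had 1398, 1315 and 1412 in the PhenDC3 libraries, against 1052, 1069 and 1215 in the DMSO libraries. Every PhenDC3 library was above every DMSO library (log2 fold change 0.31, SE 0.07, limma adjusted p = 0.000876). PSMD2, the scaffold on which shuttle proteins dock, had the highest count of the 45 genes. It had 10593, 9956 and 10062 in the PhenDC3 libraries, against 9222, 9794 and 9791 in the DMSO libraries. These groups did not overlap, but the difference of 0.09 did not pass the test (SE 0.06, limma adjusted p = 0.194). PSMD11 averaged 2771 ± 64.8 in PhenDC3 and 2541 ± 118 in DMSO (log2 fold change 0.13, SE 0.06, limma adjusted p = 0.081), and it would be called higher without DMSO replicate 3 (limma adjusted p = 0.0296) or when libraries were scaled to reads outside the mitochondrial genome (0.0478). PSMD6 averaged 1457 ± 10.1 in PhenDC3 and 1609 ± 103 in DMSO (log2 fold change -0.14, SE 0.07, limma adjusted p = 0.0697) and would be called lower without DMSO replicate 1 (limma adjusted p = 0.0281). PSMD8 averaged 1769 ± 87.4 in PhenDC3 and 1807 ± 181 in DMSO and overlapped (log2 fold change -0.03, SE 0.07, limma adjusted p = 0.765). With PSMD2 included, the summed non-ATPase count stood at 92.0% of DMSO, at 27446 ± 160 in PhenDC3 and 29830 ± 1151 in DMSO.

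**Figure D4:**
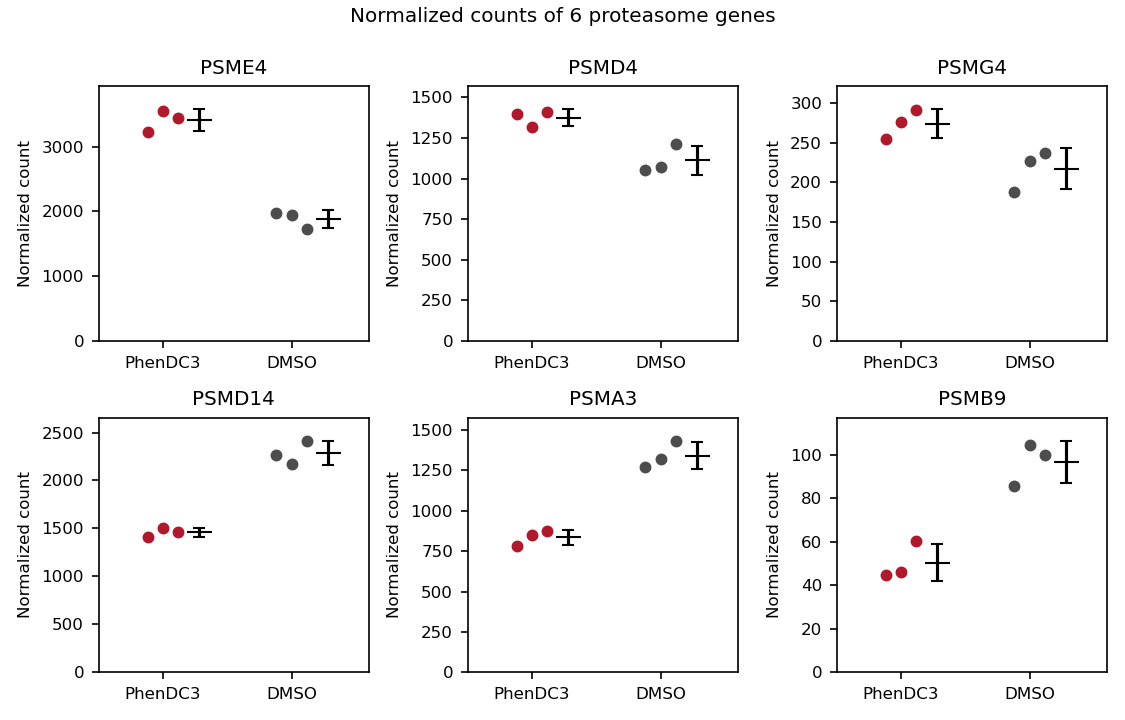
Normalized counts (vertical axes, from 0) of 6 proteasome genes in the 3 PhenDC3 and 3 DMSO libraries, with mean and SD beside the points. PSME4, PSMD4 and PSMG4 lie higher in every PhenDC3 library and PSMD14, PSMA3 and PSMB9 lower.

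Activators that cap the core in place of the 19S cap moved in both directions. PSME4 rose the most of the 45 genes and PSME2 fell. PSME4 encodes PA200, a nuclear activator linked to the breakdown of acetylated histones. It had 3224, 3558 and 3448 in the PhenDC3 libraries, against 1981, 1941 and 1733 in the DMSO libraries. The PhenDC3 mean was 1.81 times the DMSO mean, with no overlap (log2 fold change 0.86, SE 0.07, limma adjusted p = 9.34e-10). It rested on 2390 to 2724 recovered reads in every library of either group. Its fold change lay above those of 87.8% of tested genes. PSME3, which forms a nuclear activator ring alone, had 2698, 2636 and 2639 in the PhenDC3 libraries, against 2389, 2365 and 2489 in the DMSO libraries (log2 fold change 0.14, SE 0.06, limma adjusted p = 0.048). That call was lost without any one of PhenDC3 replicates 1 (limma adjusted p = 0.11), 2 (0.0805) or 3 (0.123) and DMSO replicates 1 (0.113) or 2 (0.158), and under edgeR (adjusted p = 0.0552) and DESeq2 (adjusted p = 0.0713).

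PSME1 and PSME2 form the interferon-inducible activator ring together. PSME2 had 278, 259 and 287 in the PhenDC3 libraries, against 359.6, 336 and 412 in the DMSO libraries and was lower (log2 fold change -0.42, SE 0.09, limma adjusted p = 0.000674). PSME1 averaged 987 ± 39.8 in PhenDC3 and 1069 ± 80.4 in DMSO, and its groups overlapped (log2 fold change -0.11, SE 0.07, limma adjusted p = 0.182). PSMF1, which inhibits the core in the test tube, averaged 1058 ± 42.0 in PhenDC3 and 1129 ± 24.7 in DMSO (log2 fold change -0.09, SE 0.07, limma adjusted p = 0.224). The summed count of these 5 genes was 8387 ± 125 in PhenDC3 and 6867 ± 92.4 in DMSO. The difference lay in PSME4, since the other 4 genes summed to 4977 ± 96.1 in PhenDC3 and 4982 ± 193 in DMSO, with overlap.

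The assembly factors were mostly without a call. PSMG4, which pairs with PSMG3 to help build the alpha ring, had 254, 275 and 291 in the PhenDC3 libraries, against 188, 227 and 237 in the DMSO libraries. The groups did not overlap, at 1.26 times the DMSO mean (log2 fold change 0.34, SE 0.10, limma adjusted p = 0.00907). Its call was lost without PhenDC3 replicate 3 (limma adjusted p = 0.0518) or DMSO replicate 1 (0.0784). PSMG4 shares 1388 annotated exonic bases, 13.3% of its own, with SLC22A23 on the opposite strand, which was itself higher, at 326 in PhenDC3 against 156 in DMSO. PSMG3 averaged 271 ± 14.0 in PhenDC3 and 284 ± 38.7 in DMSO with overlap (log2 fold change -0.06, SE 0.10, limma adjusted p = 0.667). PSMG1 and PSMG2 form the other early chaperone pair. PSMG1 averaged 507 ± 48.7 in PhenDC3 and 582 ± 30.6 in DMSO (log2 fold change -0.20, SE 0.08, limma adjusted p = 0.0432), a call lost without PhenDC3 replicate 1 (limma adjusted p = 0.229), PhenDC3 replicate 3 (0.0545), DMSO replicate 2 (0.136) or DMSO replicate 3 (0.0644). PSMG2 averaged 405 ± 23.5 in PhenDC3 and 434 ± 64.3 in DMSO and overlapped (log2 fold change -0.09, SE 0.10, limma adjusted p = 0.436). The summed 20S assembly factors overlapped between groups, at 1457 ± 83.9 in PhenDC3 and 1517 ± 141 in DMSO.

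Chaperones that assemble the ATPase ring gave 1 lower gene of 3. PSMD10, also known as gankyrin, averaged 429 ± 17.8 in PhenDC3 and 507 ± 14.9 in DMSO (log2 fold change -0.24, SE 0.08, limma adjusted p = 0.0114), and its call was lost without PhenDC3 replicate 3 (limma adjusted p = 0.0535). PSMD5 averaged 321 ± 28.1 in PhenDC3 and 359 ± 21.3 in DMSO and PSMD9 183 ± 14.4 in PhenDC3 and 189 ± 12.7 in DMSO, both with overlap and no call (limma adjusted p = 0.136 and 0.721). PSMD9 shares 436 exonic bases, 4.97% of its own, on the same strand with WDR66, which was much higher, at 238 in PhenDC3 against 26.7 in DMSO.

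Other members also have relatives or neighbours that could take or lend reads. Of the 45 genes, 8 have pseudogene rows in the table, 17 rows in all, and 19 share exonic bases with another gene in it. PSMA6 with its 3 copies summed to 363 ± 18.2 in PhenDC3 and 459 ± 27.4 in DMSO, or 79.1%, close to the 79.2% of PSMA6 alone. PSMA6 also shares 919 exonic bases on the same strand with AL121594.1, which had no call at 11.2 in PhenDC3 against 6.76 in DMSO. On the same strand, PSMA1 shares 814 exonic bases with AC018523.2 and PSMD9 shares 1307 with AC069503.2, and neither neighbour was measured. PSMB8 and PSMB9 share 139 exonic bases on opposite strands. PSMB10 shares 644, 34.8% of its own, with AC040162.1 on the same strand. That gene had no call, at 18.5 in PhenDC3 against 12.7 in DMSO, and its groups did not overlap. PSMC5 shares 874 with FTSJ3, which had no call at 2449 in PhenDC3 against 2263 in DMSO. PSMD7 shares 842 with AC009120.2, which was higher at 36.5 in PhenDC3 against 16.7 in DMSO.

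Levels of these genes were spread widely per kb of principal transcript, also among the core and cap genes, whose subunits assemble in fixed ratios. In DMSO the highest were PSMA7 at 3211, PSMD2 at 2784, PSMB4 at 2750.1 and PSMB1 at 2528 normalized counts per kb. The lowest of the core and cap were PSMC1, at 25.3 in PhenDC3 and 29.9 in DMSO, and PSMA2, at 79.2 in PhenDC3 and 91.7 in DMSO. The level of PSMC1 is uncertain because of its copies and of NRDE2, as given above. PSMA2 shares 781 annotated exonic bases with AC010132.3 on the same strand and 1043 with AC010132.2 on the opposite strand. How far the assignment of reads set these 2 levels was not tested. Summed over the 20S core the normalized count was 16507 ± 405 in PhenDC3 and 20505 ± 1661 in DMSO, or 80.5%. Over the 19S cap it was 33739.7 ± 196 in PhenDC3 and 37603 ± 1567 in DMSO, or 89.7%. Neither sum overlapped between groups. Of the cap sum, PSMD2 alone held 10204 in PhenDC3 and 9602 in DMSO.

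The counts of companion genes below stand beside 29.2% higher and 30.4% lower over all tested genes, and the lists were not tested as sets. Of 5 proteasome parts that carry other names, 2 were lower and 1 was higher. SEM1, a small lid subunit, was at 639 in PhenDC3 against 858 in DMSO (log2 fold change -0.42, SE 0.09, limma adjusted p = 0.000479). PAAF1, a chaperone of the ATPase ring, was at 96.01 in PhenDC3 against 160.2 in DMSO (log2 fold change -0.73, SE 0.12, limma adjusted p = 2.5e-05). AKIRIN2, which brings proteasomes into the nucleus, was higher at 755 in PhenDC3 against 599 in DMSO (log2 fold change 0.33, SE 0.08, limma adjusted p = 0.00121). The ubiquitin receptor ADRM1, at 2103 in PhenDC3 against 2114 in DMSO, and the core maturation factor POMP, at 1315 in PhenDC3 against 1385 in DMSO, had no call.

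Of 7 regulators of proteasome genes 4 were higher and 2 lower. NFE2L1, the factor that raises proteasome genes when activity is short, had 3379, 2951 and 3089 in the PhenDC3 libraries, against 4365, 4307 and 4155 in the DMSO libraries. It was lower without overlap (log2 fold change -0.45, SE 0.06, limma adjusted p = 3.59e-06). DDI2, the protease that cuts the NFE2L1 protein into its active form, had 757, 829 and 781 in the PhenDC3 libraries, against 381, 371 and 298 in the DMSO libraries. It was higher (log2 fold change 1.18, SE 0.09, limma adjusted p = 8.81e-10). The small MAF partners rose, with MAFK at 523 in PhenDC3 against 145 in DMSO (log2 fold change 1.85, SE 0.09, limma adjusted p = 8.12e-13), MAFG at 1894 in PhenDC3 against 708 in DMSO (log2 fold change 1.42, SE 0.07, limma adjusted p = 4.37e-13) and MAFF at 408 in PhenDC3 against 288 in DMSO (log2 fold change 0.50, SE 0.09, limma adjusted p = 4.62e-05). NFE2L2 stood at 1164 in PhenDC3 against 1295 in DMSO (limma adjusted p = 0.0458), a call lost without any one of DMSO replicates 1 or 2 or the PhenDC3 libraries (limma adjusted p between 0.0715 and 0.172). NGLY1, which removes sugars from the NFE2L1 protein, had no call at 450.0 in PhenDC3 against 504 in DMSO.

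Of 13 ubiquitin enzymes and shuttles, which bring substrates to the particle or act on them there, 4 were higher and 4 lower, near the shares over all tested genes. RAD23B, a shuttle that binds ubiquitin chains, was lower, at 2630.4 in PhenDC3 against 3209 in DMSO (log2 fold change -0.29, SE 0.06, limma adjusted p = 0.000232). The shuttles UBQLN4, at 1020.0 in PhenDC3 against 566 in DMSO (log2 fold change 0.85, SE 0.07, limma adjusted p = 3.86e-09), and UBQLN2, at 701 in PhenDC3 against 521 in DMSO (log2 fold change 0.42, SE 0.08, limma adjusted p = 0.000132), were higher. So was ZFAND2A, a stress-induced proteasome binder, at 126 in PhenDC3 against 68.9 in DMSO (log2 fold change 0.86, SE 0.14, limma adjusted p = 2.14e-05).

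For VCP, the segregase that pulls ubiquitinated proteins free, 4 of 10 genes were higher and 2 lower. VCP itself had no call at 6392 in PhenDC3 against 6640.4 in DMSO. Its cofactor NPLOC4 was at 3977 in PhenDC3 against 2074 in DMSO (log2 fold change 0.94, SE 0.06, limma adjusted p = 5.35e-11) and UBXN7 at 2435 in PhenDC3 against 1343 in DMSO (log2 fold change 0.87, SE 0.09, limma adjusted p = 3.56e-08). PLAA was lower, at 580.0 in PhenDC3 against 926 in DMSO (log2 fold change -0.67, SE 0.07, limma adjusted p = 4.85e-08). Among 6 genes for ubiquitin and its activating enzymes, 3 were higher and 1 lower. The activating enzymes UBA1, at 5717 in PhenDC3 against 4613 in DMSO (log2 fold change 0.31, SE 0.06, limma adjusted p = 0.000225), and UBA6, at 1448 in PhenDC3 against 1159 in DMSO (log2 fold change 0.32, SE 0.08, limma adjusted p = 0.00103), were higher. RPS27A, which encodes ubiquitin fused to a ribosomal protein, was the lower one, at 2047 in PhenDC3 against 2404 in DMSO (log2 fold change -0.23, SE 0.08, limma adjusted p = 0.0154), a call lost without PhenDC3 replicate 1 (limma adjusted p = 0.0599), PhenDC3 replicate 2 (0.0566) or DMSO replicate 3 (0.0548).

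The list for class I antigen presentation had 8 lower and 3 higher of 13 genes, with a median log2 fold change of -0.28. With DESeq2 6 were lower and 3 higher, where 19.3% and 19.7% of all genes were. The lower genes also numbered 6 without PhenDC3 replicate 3, DMSO replicate 2 or DMSO replicate 3. TAP2, a chain of the peptide transporter and next to PSMB8 in the genome, was lower, at 373 in PhenDC3 against 512 in DMSO (log2 fold change -0.46, SE 0.08, limma adjusted p = 8.98e-05). The other chain, TAP1, which is transcribed away from PSMB9 across a shared promoter region, was higher, at 326 in PhenDC3 against 260.2 in DMSO (log2 fold change 0.33, SE 0.09, limma adjusted p = 0.00497). HLA-E was higher at 1384 in PhenDC3 against 686 in DMSO (log2 fold change 1.01, SE 0.07, limma adjusted p = 2.25e-10). HLA genes are near copies of one another, so the split of reads among them is uncertain.

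**Figure D5:**
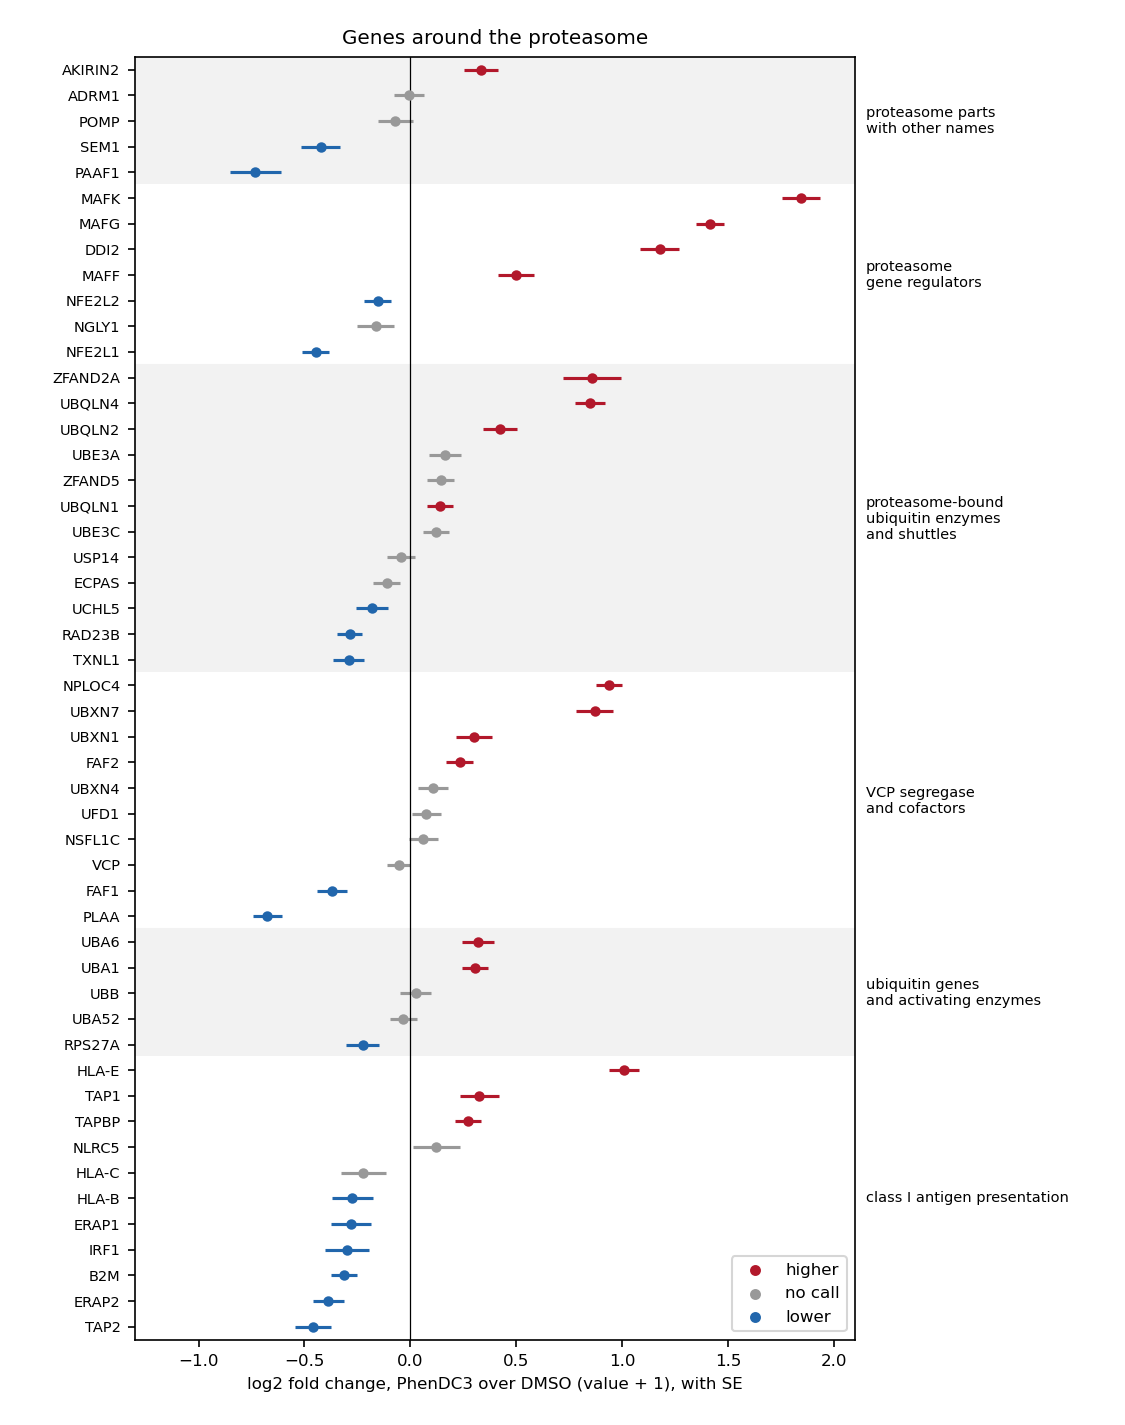
Points give the log2 fold change of PhenDC3 over DMSO with its SE for genes around the proteasome that are reported here, grouped by list and coloured by call (higher, no call, lower). MAFK, at 1.85, is farthest right and PAAF1, at -0.73, farthest left.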

How the data were processed

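Poly(A) RNA of 6 HT-1080 libraries was compared, with 3 per group as the labels give them. The submitters' processing notes list hg19, DESeq2 1.18.1, featureCounts, STAR 2.7, Cuffdiff, Cufflinks 2.2.1, TopHat2 2.0.11 and CASAVA, with no step for each. The sources used here do not give the strand setting. The deposited per-library signal is read counts that the authors divided by a size factor, as the values show: 100% were whole multiples of the value of 1 read, within a relative tolerance of 1e-06. The deposited log2 fold change and the authors' deposited adjusted p-value come from the same table, and the p-value is missing for 1332 genes but for none of the proteasome genes.

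Here limma 3.58.1 in R 4.3.3 was run on log2(value + 1) over all 6 libraries, with a variance trend and no replicate block. It covered the 16482 genes with a mean of 5 or more, adjusted by Benjamini-Hochberg at a threshold of 0.05. It was also run on simulated reads in which 200 genes changed, against 9818 called in these data. That run therefore cannot show how the fit performs where so many genes differ. Ratios were compared by an exact two-sided permutation test. On the recovered reads, DESeq2 1.42.0 and edgeR 4.0.16 were alternatives, as were other pseudocounts, filters and scalings, no trend, a replicate block and leaving out each library. Chi-square per degree of freedom within groups was 1.40 to 6.99, so no library was a duplicate. The highest values, 6.99 and 6.47, were those of DMSO replicate 3 against DMSO replicates 1 and 2, which gave 1.69 against each other. The labels do not say that replicates were separate cultures, and p-values then reflect library spread alone, which may be technical. GENCODE 29 on GRCh38 gave transcript lengths and overlaps, as the table holds no coordinates. Every proteasome gene was named, and of each companion list called genes, those with the smallest adjusted p first. Genes without a call and overlapping neighbours were named after their values were seen. The members and lists were chosen with earlier results of these data known. Some companion genes are counted in their lists but are not reported here.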

Additional observations from a re-analysis of the deposited data

How the results depend on the processing

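The proteasome genes called numbered 28 in the reported fit and between 22 and 28 over 18 alternatives, with 22 to 27 when each library was left out, 27 with a replicate block, 27 with edgeR and 26 with DESeq2. Of the 28, 21 kept call and sign in every alternative and none reversed with a call. The companion genes called numbered 38, and 33 to 36 when each library was left out. All genes called numbered 9818, with 8965 to 9564 when each library was left out and 10155 with the replicate block. Same-numbered libraries did not deviate together in every pair (r = -0.04, 0.16 and 0.08), so the numbers were not taken as a pairing. With the block, the signs of the differences between same-numbered libraries were flipped, and the smallest p this can give is 0.25. The exact sign-flip p of the PSMB8, PSMB9 and PSMB10 ratios was 0.25, 0.25 and 0.75. The values at that floor cannot be read as a weaker or an equal difference. Leaving out each library gave log2 differences of -0.24 to -0.08 for PSMB8 over PSMB5, -0.75 to -0.52 for PSMB9 over PSMB6 and -0.025 to 0.12 for PSMB10 over PSMB7, whose sign turned without PhenDC3 replicate 3 or DMSO replicate 2. The cause was not tested. PSME3 lost its call with the block (limma adjusted p = 0.0507), and PSMG1 lost its call with DESeq2 (adjusted p = 0.1). Depth limits PSMB9, PSMB10, PSMC1 and PSMA2 most, as they had the fewest reads.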
